A study of Mus musculus with 6 samples.

Results

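Hyaluronan is made, broken down and bound by the products of the 10 genes described here, which were chosen by name: the synthases Has1, Has2 and Has3, the precursor enzyme Ugdh, the degrading enzymes Hyal1, Hyal2 and Cemip, and the binding proteins Cd44, Tnfaip6 and Vcan. Each was found by its Ensembl identifier (GENCODE M21) among 55426 features, and all 10 were among the 16207 genes that passed a filter on low counts. RNA was measured in primary mouse pancreatic stellate cells (PSCs), fibroblast precursors isolated from the pancreas of wild-type C57BL/6 mice. They were kept in Matrigel in a transwell insert, a porous cup, above organoids of mT3, a pancreatic ductal adenocarcinoma (PDAC) line from the KPC mouse model. After 48 h, 3 samples had been at 21% O2 (normoxic) and 3 at 1% O2 (hypoxic), both with the same organoids, so no sample shows PSCs without tumor cells. Only the PSC compartment was profiled, and the comparison asks which of its transcripts differ at low oxygen. The labels do not tell whether the replicates were separate PSC lines or animals, so p-values measure the spread between these samples only.

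Hyaluronan is a long unbranched sugar polymer of the matrix. Synthases in the plasma membrane join UDP-glucuronic acid, made by Ugdh, to UDP-N-acetylglucosamine and push the growing chain out of the cell. The chain is cut at the cell surface and in lysosomes, and is held by receptors and by matrix proteins that cross-link it. Fibroblasts are a major source of hyaluronan in PDAC, where it is abundant in the stroma.

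In hypoxic PSCs, transcripts of Ugdh, Has3, Hyal1, Has1 and Tnfaip6 were higher and those of Cemip and Vcan were lower than in normoxic PSCs. A gene was called when its linear fold change was beyond 1.5 and its Benjamini-Hochberg adjusted p over all tested genes, from edgeR's quasi-likelihood F test, was under 0.05. By this rule 5 of the 10 members were called higher, where 18.9% of all tested genes were, and 2 were called lower, where 15.3% were. The members were chosen with earlier results of these data known, so these shares do not test whether they stand apart from other genes. Of the other members, Hyal2 passed the adjusted p but not the fold change, and Has2 and Cd44 passed neither. The median log2 fold change of all 10 members was 0.34, and that of all tested genes was -0.00398. In 5 members all hypoxic samples lay above all normoxic ones, which held for 34.9% of all tested genes, and in 4 all lay below, which held for 34.0%. Without normoxia replicate 1, or without hypoxia replicate 3, 3 members were called higher, and 4 without any other single sample. Without normoxia replicate 1, normoxia replicate 3 or hypoxia replicate 2, 1 was called lower. The genes concerned are Has1, Tnfaip6 and Vcan.

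Library totals ran from 24749601 to 25914892 counts at 21% O2 and from 25847719 to 31925054 at 1% O2, so 3 counts equal 0.0943 to 0.122 CPM, which are counts scaled to a common library size (TMM). Such limits cover counting error only. Fibroblast markers, 9 of 9 tested, summed to between 18201 and 23097 CPM at 21% O2 and between 18757 and 21207 CPM at 1% O2, with 2 called higher (Pdgfra, Pdpn) and 1 lower (Lum). Of 10 macrophage markers, all tested, 5 were called lower and 0 higher, and their sum was 862 to 1504 CPM at 21% O2 and 453 to 802 CPM at 1% O2. Of 8 epithelial markers 3 were tested and 1, Krt19, was called higher. Their sum was 3.23 to 5.31 CPM at 21% O2 and 25.0 to 28.9 CPM at 1% O2, most of it Krt19 at 1% O2, while Epcam had 1 count in 1 sample and 0 in the other 5. Of 8 mesothelial markers 2 were tested, and Wt1 was called higher (mean 24.3 and 41.2 CPM) and Nkain4 lower (1.76 and 0.345 CPM). Their sum, most of it Wt1, was 24.3 to 32.3 CPM at 21% O2 and 40.7 to 42.6 CPM at 1% O2, with Muc16 at 0 in every sample. Of 7 endothelial markers 6 were tested, 2 were called higher (Tek, Vwf) and 1 lower (Kdr), with a median log2 fold change of -0.06 and a sum of 13.8 to 20.0 CPM at 21% O2 and 21.0 to 29.6 CPM at 1% O2. In bulk RNA, fewer cells of a type and less RNA per cell cannot be told apart. The part that these shifts in markers of other cell types may have in the values of the members was not tested.

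**Figure D1:**
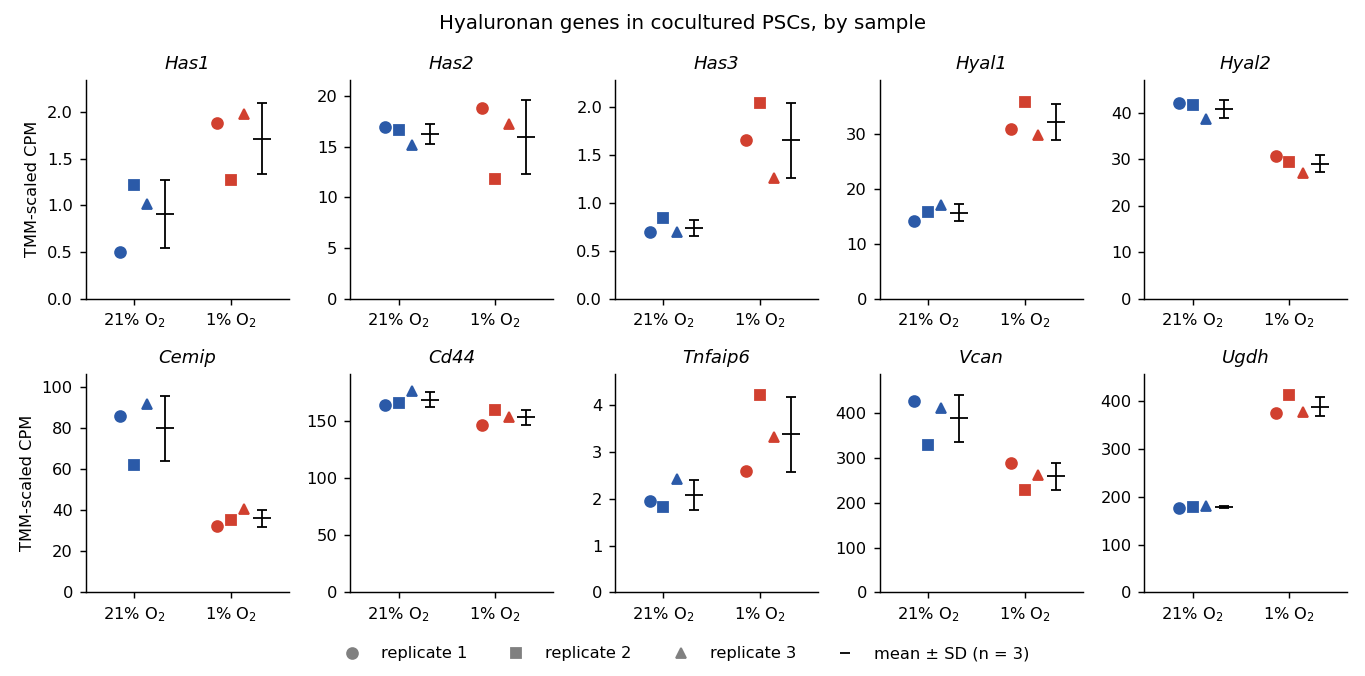
TMM-scaled CPM (linear axis from 0, separate for each gene) of the 10 members in 3 samples at 21% O2 (blue) and 3 at 1% O2 (red), with the mean and SD beside each group. Ugdh, Hyal1, Has3, Has1 and Tnfaip6 lie higher and Cemip, Vcan, Hyal2 and Cd44 lower in all hypoxic samples, while the groups overlap in Has2.

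Ugdh, UDP-glucose dehydrogenase, makes the UDP-glucuronic acid that goes into hyaluronan and into other glycosaminoglycans. Its identifier is ENSMUSG00000029201 and it lies at GRCm38 chr5:65413221-65435949 on the minus strand. Its level was 177, 180 and 181 CPM in normoxic replicates 1, 2 and 3, and 376, 412 and 378 CPM in hypoxic replicates 1, 2 and 3. The normoxic samples were within a few CPM of each other and all hypoxic samples were far above them. The mean rose from 179 ± 1.81 to 389 ± 20.4 CPM (± SD, n = 3), giving a log2 fold change of 1.12 ± 0.06 (SE) with an edgeR adjusted p of 6.00e-07. Leaving out any single sample kept the log2 fold change between 1.07 and 1.14. Ugdh shares 158 exon bases on the same strand with the predicted gene Gm43552, and reads from those bases cannot be assigned to either with certainty.

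Promoter windows, the 250 bases before the transcription start in RefSeq (GRCm38.p6), were found for 8 of the 10 members, all but Has2 and Has3. They were searched on both strands for ACGTG and GCGTG, the letters at the core of the hypoxia response element, which hypoxia-inducible factors bind. Among the 8 windows, that of Ugdh held 3 matches to GCGTG and that of Cd44 held 1 match to ACGTG. The windows of Has1, Hyal1, Hyal2, Cemip, Tnfaip6 and Vcan held 0. That of Hyal2 (chr9:107568913-107569162) lies wholly inside the gene as annotated in GENCODE M21, so the bases before that annotated start were not searched. Those of Has1, Hyal1, Tnfaip6 and Ugdh run partly into their genes. Of all 32851 windows of this length, 38.6% held either motif, 16.6% held ACGTG, 28.2% held GCGTG and 6.58% held 3 or more matches. A match here describes the letters and not a bound site, and an absent match refers only to this window. The 3 sequences below are those of Ugdh, which has the most matches, of Cd44, which has a match and was not called, and of Hyal1, which was called higher and has none. They are printed 5′ to 3′ in the direction of transcription, without bases of annotated exons, and capitals mark the motif, which reads CACGC where it lies on the opposite strand. That of Ugdh is chr5:65435950-65436092 on the minus strand, from position -250 to -108 before the start, with matches at -180 to -176 and -172 to -168. Its other match, at -94 to -90, lies in annotated exon bases and is not printed. That of Cd44 is chr2:102901666-102901915 on the minus strand, with its match at -29 to -25. That of Hyal1 is chr9:107576700-107576926 on the plus strand, from -250 to -24.
Ugdh: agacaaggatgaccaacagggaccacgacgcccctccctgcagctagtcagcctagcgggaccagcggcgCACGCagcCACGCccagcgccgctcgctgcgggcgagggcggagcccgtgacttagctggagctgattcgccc
Cd44: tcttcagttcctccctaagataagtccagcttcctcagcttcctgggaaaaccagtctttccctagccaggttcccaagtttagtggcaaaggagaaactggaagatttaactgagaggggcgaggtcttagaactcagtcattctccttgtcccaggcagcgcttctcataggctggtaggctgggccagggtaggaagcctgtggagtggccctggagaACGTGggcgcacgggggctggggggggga
Hyal1: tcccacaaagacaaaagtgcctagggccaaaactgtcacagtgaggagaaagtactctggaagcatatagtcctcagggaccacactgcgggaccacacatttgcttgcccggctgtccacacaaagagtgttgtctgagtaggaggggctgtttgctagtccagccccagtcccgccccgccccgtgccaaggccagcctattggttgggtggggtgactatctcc

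Has1, Has2 and Has3 encode the synthases, which differ in their activity and in the length of the chains they make. Has2 was by far the most abundant per length and did not pass the test, while the minor synthases Has1 and Has3 were both called higher at 1% O2.

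Has2 (ENSMUSG00000022367, chr15:56665627-56694539, minus strand) is the main synthase of many mesenchymal cells. It was measured at 16.9, 16.6 and 15.1 CPM in normoxic replicates 1 to 3 and at 18.8, 11.8 and 17.3 CPM in hypoxic replicates 1 to 3. Hypoxic replicates 1 and 3 were above all normoxic samples and hypoxic replicate 2 was below them. The means were 16.2 ± 0.951 and 16.0 ± 3.64 CPM (SD, n = 3 each), a log2 difference of -0.03 with a 95% confidence interval of -0.37 to 0.32 and an edgeR adjusted p of 0.884. Without hypoxia replicate 2 the difference changed sign, to 0.15 (edgeR adjusted p = 0.214). Has2os, an antisense RNA that shares 182 exon bases with Has2, had 23, 16 and 36 counts at 21% O2 and 45, 30 and 54 at 1% O2, and did not pass either (log2 0.58, edgeR adjusted p = 0.191). The strand setting of the counting was not given, so reads of the shared bases cannot be told apart.

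Has1 (ENSMUSG00000003665, chr17:17843323-17855205, minus strand) is used as a marker of inflammatory fibroblasts. It had few reads, 13, 32 and 25 counts in normoxic replicates 1 to 3 and 48, 40 and 63 in hypoxic replicates 1 to 3. On the CPM scale these are 0.50, 1.21 and 1.01 at 21% O2 and 1.88, 1.28 and 1.98 at 1% O2. The groups did not overlap, but the lowest hypoxic sample, replicate 2, was only just above the highest normoxic one. The mean was 0.910 ± 0.368 CPM in normoxic and 1.71 ± 0.382 CPM in hypoxic samples (± SD, n = 3), giving a log2 fold change of 0.91 ± 0.33 (SE; 95% confidence interval 0.16 to 1.66; edgeR adjusted p = 0.0384). The call did not hold with DESeq2 (adjusted p = 0.0578). It was also lost in edgeR without normoxia replicate 1, where the log2 fold change was 0.61 (adjusted p = 0.109), without normoxia replicate 3 (adjusted p = 0.0709), without hypoxia replicate 1 (adjusted p = 0.0987) and without hypoxia replicate 3 (adjusted p = 0.131).

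Has3 (ENSMUSG00000031910, chr8:106870242-106884566, plus strand) had similarly few reads, 18, 22 and 17 counts at 21% O2 and 42, 64 and 40 at 1% O2. In CPM the normoxic samples were at 0.693, 0.835 and 0.690 and the hypoxic samples at 1.65, 2.04 and 1.26. All hypoxic samples were clear of the normoxic ones. Has3 rose from 0.739 ± 0.083 to 1.65 ± 0.393 CPM (± SD, n = 3), giving a log2 fold change of 1.15 ± 0.27 (SE; 95% confidence interval 0.55 to 1.75; edgeR adjusted p = 0.00452). It remained called when any single sample was left out, with log2 fold changes of 0.96 to 1.32. Has3 shares 352 exon bases with Chtf8, which runs on the other strand. As the strand setting of the counting was not given, reads of these bases may belong to either gene. Their part in the few counts of Has3 was not tested.

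Of the degrading enzymes, Hyal1 was higher, Cemip lower and Hyal2 slightly lower at 1% O2. Hyal1 (ENSMUSG00000010051, chr9:107576927-107581710, plus strand) is a lysosomal hyaluronidase. It was at 14.1, 15.8 and 17.2 CPM in normoxic replicates 1 to 3 and at 31.0, 35.9 and 29.8 CPM in hypoxic replicates 1 to 3. The lowest hypoxic sample was well above the highest normoxic one. Hyal1 rose from 15.7 ± 1.54 to 32.2 ± 3.23 CPM (± SD, n = 3), giving a log2 fold change of 1.04 ± 0.10 (SE; edgeR adjusted p = 2.13e-05). It shares 1920 exon bases on the same strand with Naa80, an actin acetyltransferase gene, and the authors' counting could split reads between them. Naa80 itself had 494, 466 and 464 counts at 21% O2 and 854, 1171 and 1015 at 1% O2. With the counts of both genes summed, an alternative chosen after seeing the data, the log2 fold change was 0.96 (edgeR adjusted p = 6.94e-06). Naa80 alone was also higher (log2 0.89, edgeR adjusted p = 1.29e-05), so the summed counts cannot tell which gene the rise belongs to. The same limit holds for the levels, shares and ratios of Hyal1 given below.

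Hyal2 (ENSMUSG00000010047, chr9:107567945-107572779, plus strand) ends 4147 bases before Hyal1 starts. It encodes a hyaluronidase anchored at the cell surface. Its values were 42.3, 41.8 and 38.6 CPM in normoxic replicates and 30.7, 29.4 and 27.1 CPM in hypoxic replicates, in the order 1 to 3. All hypoxic samples lay below all normoxic ones, the opposite of its neighbour Hyal1. The means were 40.9 ± 1.99 and 29.1 ± 1.81 CPM (SD, n = 3 each). The log2 difference of -0.49 ± 0.07 (SE; edgeR adjusted p = 0.000222) passed the adjusted p and was short of the fold change of 1.5, so Hyal2 was not called.

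Cemip (ENSMUSG00000052353, chr7:83932857-84086502, minus strand) encodes a hyaluronan-binding protein that depolymerises hyaluronan outside lysosomes and is made by fibroblasts. It was at 85.9, 62.0 and 91.5 CPM in normoxic replicates 1 to 3 and at 32.2, 35.3 and 40.6 CPM in hypoxic replicates 1 to 3. The normoxic samples varied more than the hypoxic ones, with replicate 2 the lowest, and the groups did not overlap. Cemip fell from 79.8 ± 15.7 to 36.0 ± 4.27 CPM (± SD, n = 3), giving a log2 fold change of -1.15 ± 0.14 (SE; edgeR adjusted p = 0.000111), between -1.30 and -1.04 with any single sample left out.

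Among the binding proteins, Vcan was called lower, Tnfaip6 was called higher from a low level, and Cd44 did not pass. Vcan (ENSMUSG00000021614, chr13:89655312-89742509, minus strand) encodes versican, a large chondroitin sulfate proteoglycan that binds hyaluronan through its amino-terminal end. Its values were 428, 330 and 411 CPM at 21% O2 and 288, 228 and 263 CPM at 1% O2, for replicates 1 to 3. In both groups replicate 2 was the lowest, and all hypoxic samples were below all normoxic samples. The mean was 390 ± 52.5 CPM in normoxic and 260 ± 30.4 CPM in hypoxic samples (± SD, n = 3), giving a log2 fold change of -0.59 ± 0.11 (SE; edgeR adjusted p = 0.00155). This was only just beyond the fold change of 1.5. The change came short of it without normoxia replicate 1 (log2 -0.52), without normoxia replicate 3 (log2 -0.55) and without hypoxia replicate 2 (log2 -0.50), with edgeR adjusted p of 0.00521, 0.00817 and 0.00522.

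Tnfaip6 (ENSMUSG00000053475, chr2:52038009-52056686, plus strand) encodes a secreted protein, induced by inflammatory cytokines, that transfers heavy chains of inter-alpha-trypsin inhibitor onto hyaluronan. It was measured at 1.96, 1.82 and 2.43 CPM in normoxic and at 2.59, 4.21 and 3.33 CPM in hypoxic replicates 1 to 3, from 48 to 132 counts per sample. Hypoxic replicate 1 was only just above normoxic replicate 3, and hypoxic replicate 2 was the highest. The means were 2.07 ± 0.321 and 3.38 ± 0.811 CPM (± SD, n = 3), giving a log2 fold change of 0.71 ± 0.22 (SE; 95% confidence interval 0.21 to 1.22; edgeR adjusted p = 0.0200). The call was lost without normoxia replicate 1 (edgeR adjusted p = 0.0560), normoxia replicate 2 (0.0541), hypoxia replicate 2 (0.0842, with a log2 fold change of 0.52) or hypoxia replicate 3 (0.0527).

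Cd44 (ENSMUSG00000005087, chr2:102811141-102901665, minus strand) encodes the principal cell surface receptor for hyaluronan. Its level was 164, 166 and 176 CPM in normoxic replicates and 146, 159 and 154 CPM in hypoxic replicates 1 to 3. All hypoxic samples were below all normoxic samples by a small margin. The means were 168 ± 6.35 and 153 ± 6.75 CPM (SD, n = 3 each), a log2 difference of -0.14 ± 0.06 (SE; 95% confidence interval -0.27 to -0.01; edgeR adjusted p = 0.0575), which missed the adjusted p and the fold change.

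To compare levels between genes, CPM were divided by the length of each gene's exons in kilobases. On this length-scaled scale the order at 21% O2 was Vcan (26.9), Ugdh (26.6), Cd44 (24.9), Hyal2 (12.4), Cemip (6.52), Hyal1 (4.15), Has2 (3.83), Tnfaip6 (1.21), Has1 (0.201) and Has3 (0.116 CPM per kilobase). Samples of Vcan overlapped with those of Ugdh and Cd44, those of Hyal1 with Has2, and those of Has1 with Has3. At 1% O2 the order was Ugdh (57.6), Cd44 (22.6), Vcan (18.0), Hyal2 (8.83), Hyal1 (8.53), Has2 (3.77), Cemip (2.94), Tnfaip6 (1.98), Has1 (0.379) and Has3 (0.259 CPM per kilobase). There Hyal2 overlapped with Hyal1, Has2 with Cemip, and Has1 with Has3. Ugdh thus stood alone at the top of the length-scaled levels at 1% O2, and Hyal1 reached the level of Hyal2. Scaling by the longest transcript instead placed Cd44 above Ugdh at 21% O2, and Hyal1 (10.7) above Hyal2 (9.80) and Cemip (5.06) above Has2 (3.77) at 1% O2. On that scale samples of Cd44 overlapped with those of Ugdh at 21% O2, and those of Hyal1 with Hyal2 at 1% O2.

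The summed length-scaled level of the synthases was 4.15 ± 0.216 CPM per kilobase at 21% O2 and 4.40 ± 0.894 at 1% O2 (SD, n = 3 each), and the samples overlapped. Has2 made up 92.3% ± 2.15 of this sum in normoxic and 85.2% ± 2.53 in hypoxic samples. The share of Has1 was 4.87% ± 1.95 and 8.60% ± 0.619, and that of Has3 was 2.79% ± 0.224 and 6.22% ± 2.81. Has2 thus remained most of the length-scaled synthase transcript in every sample. Hyal1, Hyal2 and Cemip summed to 23.1 ± 0.996 CPM per kilobase in normoxic and 20.3 ± 0.939 in hypoxic samples, without overlap. Hyal1 made up 18.0% ± 1.89 of this sum at 21% O2 and 42.0% ± 2.28 at 1% O2, and Cemip 28.1% ± 4.43 and 14.5% ± 2.20. The share of Hyal2 was 53.9% ± 4.27 and 43.5% ± 2.41. These sums and shares are descriptions and were not tested. Those of the degrading enzymes leave out Cemip2, of the wider list, as does their ratio to the synthases below. Cemip2 was at 5.71 ± 0.444 CPM per kilobase in normoxic and 6.83 ± 0.422 in hypoxic samples (SD, n = 3 each). It was higher in every hypoxic sample, so the lower sum at 1% O2 holds for Hyal1, Hyal2 and Cemip only.

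**Figure D2:**
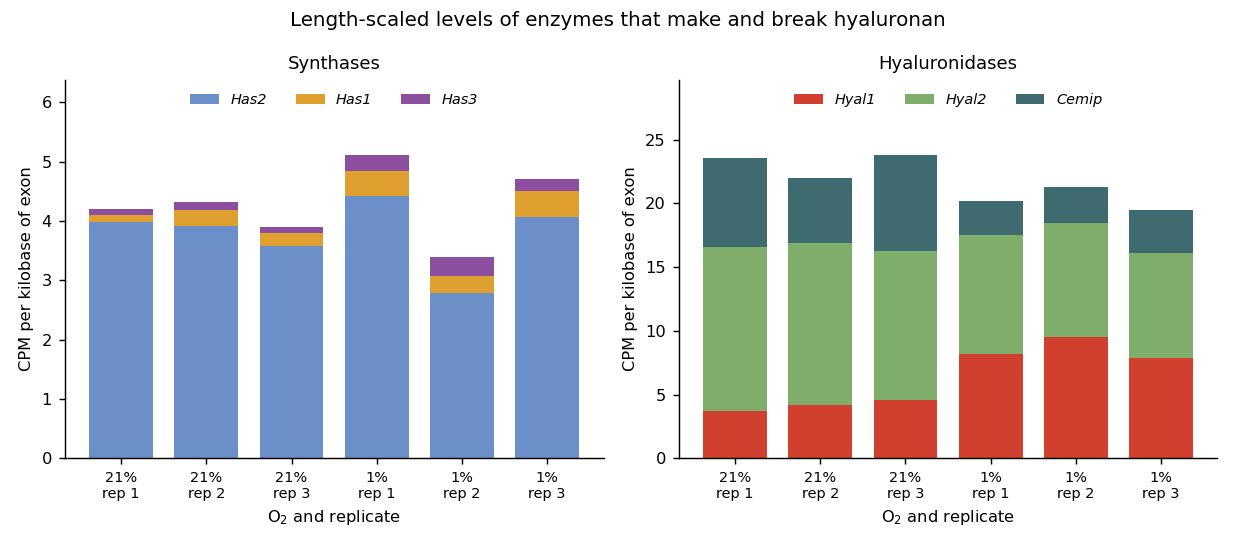
Stacked length-scaled levels (CPM per kilobase of exon, bars from 0, separate scales) of the synthases (left) and of Hyal1, Hyal2 and Cemip (right) in each of the 6 samples. Has2 is most of the synthase total in all samples, and the Hyal1 share grows from 18.0% to 42.0% on average, while the mean total of the 3 degrading enzymes is 23.1 at 21% O2 and 20.3 at 1% O2.

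Ratios of genes within a sample do not depend on the scaling between libraries. For 9 ratios the log2 ratio of counts per kilobase was compared between groups by an exact two-sided permutation test, which with 3 against 3 samples cannot go below p = 0.1. The Hyal1 to Hyal2 ratio was 0.291 to 0.388 in normoxic and 0.880 to 1.06 in hypoxic samples, a mean log2 difference of 1.53. The log2 ratio of Has1 to Has2 was higher at 1% O2 by 1.01, that of Has3 to Has2 by 1.16, that of Tnfaip6 to Vcan by 1.27 and that of Cd44 to Vcan by 0.45. Without normoxia replicate 1 the difference in the Has1 to Has2 ratio was 0.61. The summed synthases were 0.146 to 0.163 of Ugdh in normoxic and 0.0558 to 0.0919 of it in hypoxic samples, a log2 difference of -1.05. These 6 ratios had no overlap between groups, and each had the smallest possible exact p of 0.1 (0.15 after Benjamini-Hochberg adjustment over the 9). None of the 9 passed 0.05, which the design does not allow. The other 3 overlapped. They were Cemip to Hyal2 (log2 difference -0.64, exact p = 0.2), synthases to degrading enzymes (0.25, exact p = 0.4) and Has1 to Has3 (-0.15, exact p = 0.7). The difference in the ratio of synthases to degrading enzymes was 0.13 without hypoxia replicate 1, 0.46 without hypoxia replicate 2 and 0.16 without hypoxia replicate 3. That in the Has1 to Has3 ratio changed sign without normoxia replicate 2 (0.01), normoxia replicate 3 (0.02) or hypoxia replicate 2 (0.21), and was -0.48 without normoxia replicate 1 and -0.45 without hypoxia replicate 3.

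**Figure D3:**
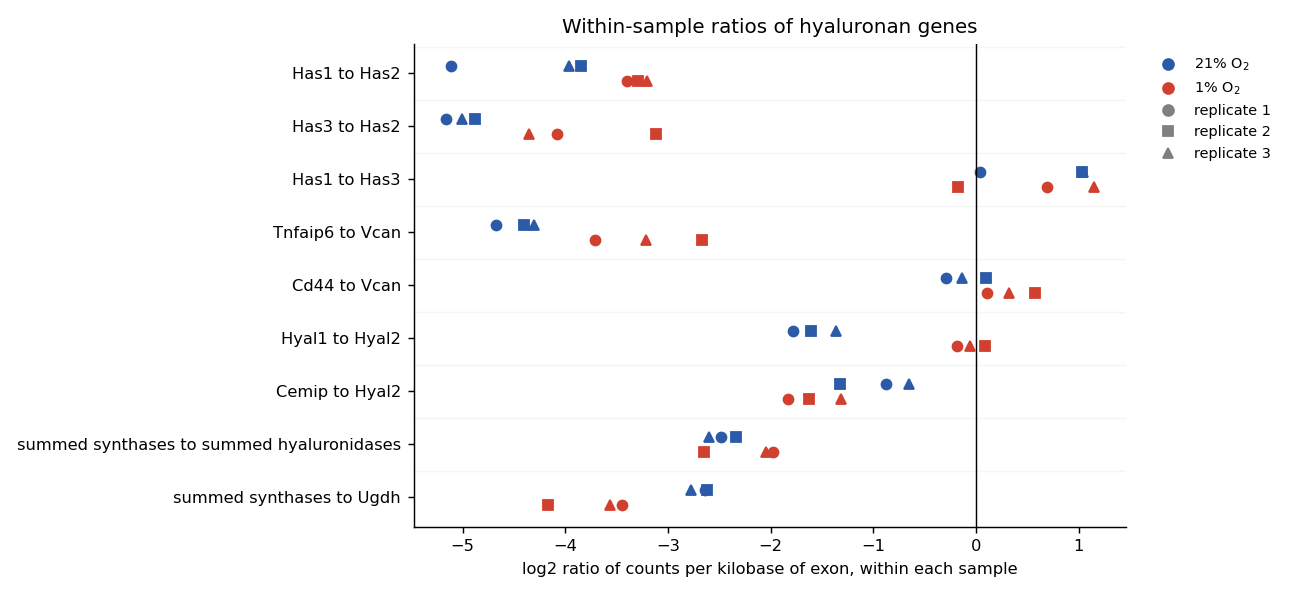
Log2 ratios of counts per kilobase of exon within each of the 6 samples, for 9 ratios, with 21% O2 in blue and 1% O2 in red and 1 symbol per replicate number. The groups are apart in 6 ratios, among them Hyal1 to Hyal2, with linear ratios of 0.291 to 0.388 at 21% O2 and 0.880 to 1.06 at 1% O2.

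A wider list of 47 genes that supply precursors of hyaluronan, take its fragments apart, or act as its other receptors and matrix partners was read from the same edgeR fit. Of these, 33 were tested, 5 were called higher, 12 lower and 16 not at all, and their median log2 fold change was 0.000162. Beside these counts, 18.9% of all tested genes were called higher and 15.3% lower. In 13 of the 33 the hypoxic samples were all above and in 14 all below the normoxic ones, which held for 34.9% and 34.0% of all tested genes.

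Among 14 genes of precursor supply, all tested, 1 was called higher and 3 lower, where 18.9% and 15.3% of all tested genes were. Gfpt2, which carries out the rate-limiting step of hexosamine synthesis, was at 133, 145 and 148 CPM at 21% O2 and 342, 355 and 352 CPM at 1% O2. It was far above in every hypoxic sample, with a log2 fold change of 1.30 ± 0.06 (SE; edgeR adjusted p = 2.89e-07). Together with Ugdh it places an enzyme of each sugar precursor among the genes called higher, while Ugp2, Gnpnat1, Pgm3 and Uap1 were not called. Gfpt1, which catalyses the same step as Gfpt2, passed the adjusted p with a log2 difference of 0.20 and was not called. Uap1l1, a relative of the enzyme that makes UDP-N-acetylglucosamine, fell from 191 ± 2.71 to 102 ± 3.69 CPM (SD, n = 3 each; log2 -0.90; edgeR adjusted p = 1.05e-06). Amdhd2 and Gnpda1, which act in the breakdown of amino sugars, fell by 0.63 and 0.73 on the log2 scale (edgeR adjusted p = 2.36e-05 and 1.19e-05).

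Of 9 further genes of breakdown, 5 were tested and 2 were called lower. The 4 not tested, Hyal4, Hyal5, Hyal6 and Spam1, had 0 counts in every sample, where 3 counts would be 0.0943 to 0.122 CPM. Gusb, the lysosomal enzyme that removes glucuronic acid from hyaluronan fragments, was at 168, 164 and 163 CPM at 21% O2 and at 54.9, 59.9 and 56.1 CPM at 1% O2. All hypoxic samples were far below, with a log2 fold change of -1.53 ± 0.05 (SE; edgeR adjusted p = 7.85e-08). Hexa, which encodes a subunit of a lysosomal enzyme that removes N-acetylglucosamine, fell from 652 ± 23.5 to 323 ± 22.1 CPM (SD, n = 3 each; log2 -1.01; edgeR adjusted p = 2.51e-06). Hyal3 had 6 to 20 counts per sample and did not pass the test. Cemip2 passed the adjusted p (edgeR adjusted p = 0.0129) with a log2 difference of 0.26 and was not called.

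Of 7 other receptors, all tested, 1 was called higher and 4 lower. Layn, a transmembrane lectin that binds hyaluronan, was at 114, 111 and 109 CPM in normoxic and 227, 201 and 209 CPM in hypoxic samples. It was higher in every hypoxic sample, with a log2 fold change of 0.93 ± 0.06 (SE; edgeR adjusted p = 2.22e-06). Stab1 and Stab2 are scavenger receptors of endothelium, the former also of macrophages. Stab1 was at 97.1, 191 and 159 CPM at 21% O2 and 57.0, 109 and 78.2 CPM at 1% O2, and the groups overlapped (log2 -0.87 ± 0.26 (SE); edgeR adjusted p = 0.0175). It was not called without normoxia replicate 3 (edgeR adjusted p = 0.0524), hypoxia replicate 1 (0.0557) or hypoxia replicate 3 (0.0649). Normoxia replicate 2 held the most Stab1 and also the highest summed macrophage markers, 1504 CPM, and the part of macrophage RNA in the Stab1 values was not tested. Stab2 had 13, 11 and 10 counts at 21% O2 and 1, 2 and 2 at 1% O2, too few for a fold change to be read, and was called lower (edgeR adjusted p = 0.000463). The remaining receptors called lower were named after their values were seen. They are Hmmr, a receptor that also serves the mitotic spindle, which fell from 12.9 ± 1.69 to 1.80 ± 0.118 CPM (SD, n = 3 each; log2 -2.84; edgeR adjusted p = 5.49e-07), and Lyve1, a receptor of lymphatic endothelium and some macrophages, which fell from 1.24 ± 0.161 to 0.335 ± 0.200 CPM (log2 -1.83; edgeR adjusted p = 0.00308).

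Of 17 matrix partners, 7 were tested, 2 were called higher and 3 lower. Ptx3, a pentraxin that binds Tnfaip6 and stabilises hyaluronan matrices, was at 139, 137 and 161 CPM at 21% O2 and 272, 348 and 328 CPM at 1% O2. Like Tnfaip6, it was higher in all hypoxic samples (log2 1.12 ± 0.10 (SE); edgeR adjusted p = 1.44e-05). Hapln4, a link protein, rose from 3.69 ± 0.514 to 8.55 ± 0.543 CPM (SD, n = 3 each; log2 1.21; edgeR adjusted p = 6.24e-05). Itih5, of the inter-alpha-trypsin inhibitor heavy chain family, fell from 32.6 ± 7.78 to 12.0 ± 3.19 CPM (SD, n = 3 each; log2 -1.43; edgeR adjusted p = 0.000285). Itih4, of the same family, had 12, 47 and 15 counts in normoxic and 5, 9 and 6 in hypoxic samples. Its log2 fold change of -2.06 (edgeR adjusted p = 0.0115) rested in large part on normoxia replicate 2, without which it was -1.23. C1qbp, a largely mitochondrial protein that also binds hyaluronan, fell from 67.9 ± 6.44 to 38.4 ± 0.202 CPM (SD, n = 3 each; log2 -0.82; edgeR adjusted p = 1.32e-05).

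**Figure D4:**
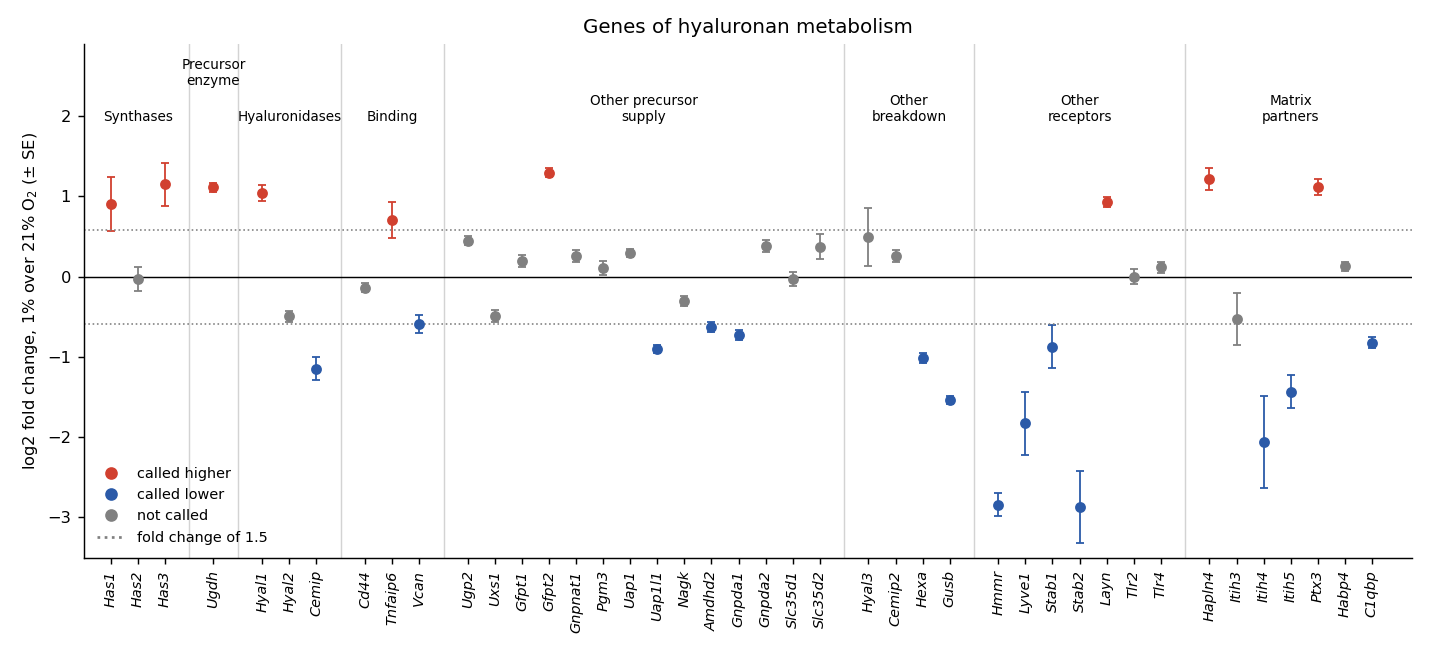
Log2 fold change at 1% over 21% O2, with its SE, of the 10 members (left) and of genes of the wider list, grouped by role. Red genes were called higher, blue genes lower and grey genes not called, and dotted lines mark a fold change of 1.5, which Vcan only just passes and Hyal2 does not reach.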

How the data were processed

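Poly(A) RNA of 3 normoxic and 3 hypoxic PSC samples was sequenced by the authors on a NovaSeq. Per the submitters' processing notes and the study's methods, reads were trimmed, aligned to GRCm38 with STAR 2.6.1b and counted per gene with RSEM 1.3.1. The annotation release and the strand setting are not given in the sources used here. The authors deposited RSEM's expected counts, not normalized between samples, and 0 of them had a fraction. Of the identifiers, 55240 were found in GENCODE M21, and the table holds 5 transgene features. 0 columns were left unused.

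Tests were run with edgeR 4.0.16 (limma 3.58.1, R 4.3.3) on all 6 samples, with filterByExpr, TMM scaling, no block and Benjamini-Hochberg adjustment over 16207 genes, and calls at a fold change beyond 1.5 and an adjusted p under 0.05. The SE of a log2 fold change is its absolute value over the square root of F. Confidence intervals are at 95%. Ratios used a pseudocount of 0.5 count and scipy 1.17.1. Exon lengths are unions over transcripts. Promoter windows came from a RefSeq table, and figures were drawn with matplotlib 3.10.9. The fits were tested on simulated data. Replicates of a group differed by more than sampling noise (chi-square per degree of freedom 5.68 to 22.5), so each counted as 1 sample.

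The 10 members were chosen by name. From the wider list, the called genes with the highest and lowest log2 fold change of each role and the called genes at a mean of at least 10 CPM were named, with exceptions stated in the text, where a gene that was not called is given only for contrast. Members and lists were chosen with earlier results of these data known. Alternatives were DESeq2 1.42.0, limma-voom, the replicate number as a block, other scalings, filters and thresholds, and each sample left out. Protein sequences were not used here, and a gene of the wider list is counted in its totals but not reported here.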

Additional observations from a re-analysis of the deposited data

How the results depend on the processing

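Of the 10 members, Has3, Hyal1, Cemip and Ugdh kept their direction and their call, and Hyal2 and Cd44 their direction without a call, under all alternative models, scalings and filters and with each sample left out. Members called higher numbered 5. They numbered 3 under DESeq2 with the replicate block and at a fold change of 2, and 3 to 4 with a sample left out. Members called lower numbered 2. They numbered 1 (Cemip) in edgeR with the replicate block, in limma-voom, with DESeq2 size factors, with a filter of 1 CPM in 3 samples and at a fold change of 2, and 1 to 2 with a sample left out. In each of the first 4 of these, Vcan came just short of the fold change of 1.5 (log2 -0.58, -0.58, -0.58 and -0.57) with an adjusted p under 0.05. With no fold change threshold Hyal2 was also called lower. In the wider list, 5 genes were called higher, 11 with no fold change threshold and 3 at a fold change of 2, and 12 were called lower, 7 at a fold change of 2. The log2 difference of Has2 ran from -0.16 to 0.15 with a sample left out and turned to 0.15 without hypoxia replicate 2. The difference in the log2 Has1 to Has3 ratio ran from -0.48 to 0.21 with a sample left out and turned to 0.01 without normoxia replicate 2, 0.02 without normoxia replicate 3 and 0.21 without hypoxia replicate 2, and its cause was not tested. Same-numbered samples correlated at 0.142, 0.139 and 0.0378 over 16207 genes in their deviations from the group means, not over 0.1 in every pair, and 6 of 6 samples correlated best with their own number, so whether the numbers pair the samples is not settled and the block was kept as an alternative. With the replicate block DESeq2 gave adjusted p of 0.111 for Has1 and 0.0849 for Tnfaip6. Counts of 13 to 64 per sample limit Has1 and Has3. Other scalings moved the median of all genes by -0.0233 to 0.00298 (log2).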

Other observations

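Of the 47 genes of the wider list, 10 had counts but were too low to be tested. Among them are the other large hyaluronan-binding proteoglycans, which are best known from cartilage and brain. Acan had 5, 0 and 1 counts at 21% O2 and 0, 0 and 0 at 1% O2, Ncan had 1, 1 and 1 and 0, 3 and 2, and Bcan had 7, 14 and 7 and 9, 11 and 20. Vcan, of the same family, had 7139 to 11120 counts per sample. The link protein Hapln1 had 4, 0 and 2 counts at 21% O2 and 1, 0 and 0 at 1% O2. Ambp, whose product carries the heavy chains that Tnfaip6 moves to hyaluronan, had 6, 6 and 8 counts at 21% O2 and 0, 3 and 2 at 1% O2, and the heavy chain gene Itih1 had at most 1 count in any sample. Apart from Vcan, these genes were not tested.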
